A study of Mus musculus with 11 samples.

Results

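The dopamine receptor family of the mouse consists of 5 genes, Drd1 to Drd5, each encoding a G protein-coupled receptor for dopamine. The members were taken by gene name: every probe set of the array whose annotation holds a single symbol, and that symbol is one of these 5. This gave 5 probe sets, 1 for each gene, among 35556 probe sets and 19938 named genes. All 5 members passed the filter on dim genes, a mean level above the 40th percentile of genes (log2 6.99). Drd4 did so by the narrowest margin, with a mean of 7.01 over all arrays.

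Expression was measured in 11 mice with Affymetrix Mouse Gene 1.0 ST arrays, 1 array for each mouse, to find the transcripts that depend on retinoic acid receptor beta, encoded by Rarb. WT mice (n = 6) and RARβ-null mutant mice (n = 5, written Rarb-null) were male littermates from heterozygous crosses on a mixed background of C57BL/6J and 129SvEms/j, aged 4 to 5 months and not tested in behaviour before. The tissue was nucleus accumbens enriched in its shell, punched at 0.5 mm from 3 cryosections of 300 µm, so each value averages all cells of the punch. The part of Rarb removed, and whether the gene was absent from development on in every cell, are not stated in the labels.

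Dopamine reaches the accumbens from the midbrain, and its receptors fall into 2 classes. The D1 class (Drd1, Drd5) couples to stimulatory G proteins and raises cyclic AMP, whereas the D2 class (Drd2, Drd3, Drd4) couples to inhibitory G proteins and lowers it. In the striatum Drd1 and Drd2 mark the main types of projection neuron, Drd3 is concentrated in the ventral striatum, Drd2 and Drd5 are also made by cholinergic interneurons, and Drd4 is mainly a gene of cortex and retina.

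Rarb itself went from 11.75 ± 0.04 (SD) to 9.89 ± 0.11, with no overlap between genotypes, so the arrays bear out their titles; the protocol text swaps the 2 group sizes. Array medians over all probe sets lay between 7.02 and 7.06 in WT arrays. In Rarb-null arrays they lay between 7.08 and 7.11. This small difference, kept in the deposited values, was not uniform over levels. The median genotype difference was 0.020 over all genes, -0.017 over tested genes and -0.028 over genes above the 60th percentile. Markers of striatal projection neurons were among the brightest genes (mean level of 11 genes 11.87 ± 0.04 for WT, 11.68 ± 0.06 for Rarb-null); 8 of the 11 fell. Cortical neuron markers had a mean level of 8.24 to 8.85 in WT and of 8.78 to 9.32 in Rarb-null arrays, with 4 of 9 tested genes higher. Of the 11963 genes tested, 905 rose and 1436 fell with Rarb loss (limma, Benjamini-Hochberg adjustment, threshold 0.05). After centring of the arrays on the median of the tested genes, which raised Rarb-null values relative to WT, 1677 were higher and 939 lower. The total dropped to 1547 without Rarb-null replicate 3.

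Of the 5 receptor genes, 2 fell in Rarb-null arrays, Drd3 and Drd2, both of the D2 class. None rose by the same limma test, while 3 of the 5 (Drd1, Drd4, Drd5) did not pass it, although Drd1 and Drd5 had an unadjusted p under 0.05, as 35.3% of all tested genes did. As the background for this count, 12% of all tested genes were called lower and 7.56% higher, 19.6% in all. The same 2 members were those whose genotypes did not overlap in any array, which held for 7.33% of tested genes in the lower direction and 3.82% in the higher. Against all tested genes, 0.702% had a lower difference than Drd3 and 2.39% a lower one than Drd2. For Drd5 this share was 4.85% and for Drd1 23.5%, while Drd4, the only member with a positive difference, lay above 86.2% of genes. In these punches of mixed cells, fewer cells of a type and less RNA per cell cannot be told apart.

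**Figure D1:**
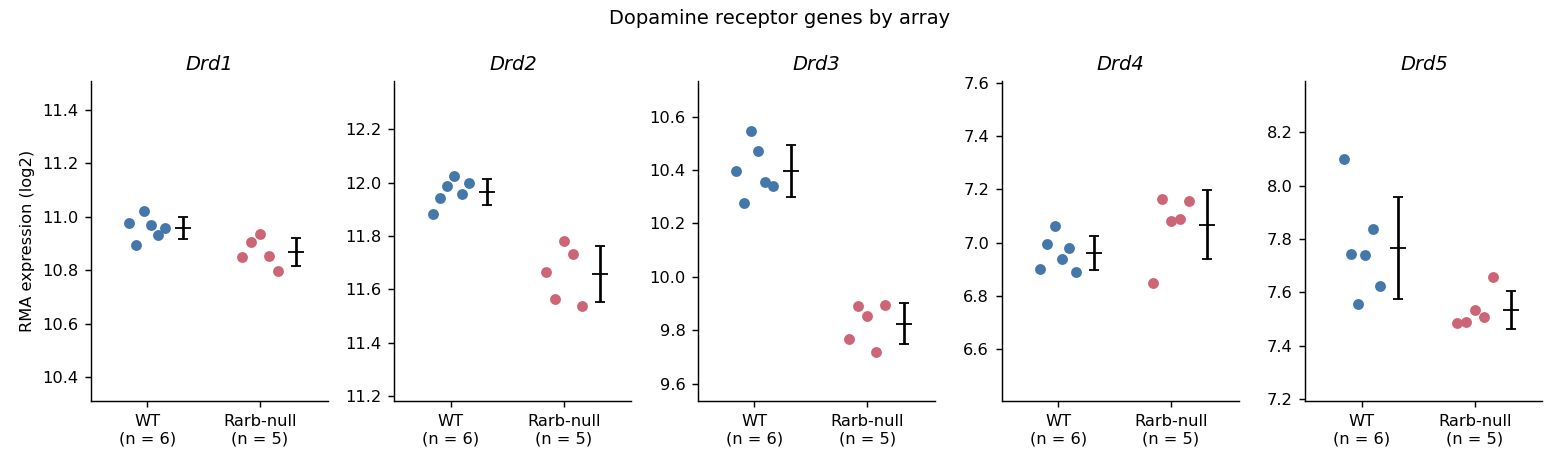
RMA expression (log2, vertical axis) of the 5 dopamine receptor genes in the 6 WT (blue) and 5 Rarb-null (red) arrays; each point is 1 mouse, the bars give mean ± SD, and all panels span the same number of log2 units. Every Rarb-null point of Drd2 and Drd3 lies below every WT point, whereas Drd1, Drd4 and Drd5 overlap.

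Drd3 and Drd2 encode the receptors of the D2 class that inhibit cyclic AMP formation in striatal neurons; Drd2 is also the autoreceptor of dopamine neurons. The stretches before their start sites are shown because these 2 members fell, and that of Drd1 because it is the main striatal receptor of the other class. Each run is the 250 bases upstream of a RefSeq start site (assembly GRCm38.p6), 5′ to 3′ on the gene's strand, at chr9:49340153-49340402 (plus strand) for Drd2, chr16:43761971-43762220 (plus strand) for Drd3 and chr13:54055659-54055908 (minus strand) for Drd1. Capitals mark matches, on either strand, to AGGTCA, to its variant GGGTCA, to the variant AGTTCA or to the variant GGTTCA, the recognition cores that retinoic acid receptors and many other nuclear receptors bind.
Drd2: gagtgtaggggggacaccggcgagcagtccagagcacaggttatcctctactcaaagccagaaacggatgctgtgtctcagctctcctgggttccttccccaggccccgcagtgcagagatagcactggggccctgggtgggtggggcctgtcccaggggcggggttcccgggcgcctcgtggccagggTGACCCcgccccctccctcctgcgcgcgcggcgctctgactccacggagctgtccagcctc
Drd3: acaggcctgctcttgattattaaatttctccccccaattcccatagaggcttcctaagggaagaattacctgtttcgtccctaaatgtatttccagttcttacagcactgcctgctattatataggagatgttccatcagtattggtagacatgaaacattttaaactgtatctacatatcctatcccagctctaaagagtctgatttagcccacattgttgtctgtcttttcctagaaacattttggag
Drd1: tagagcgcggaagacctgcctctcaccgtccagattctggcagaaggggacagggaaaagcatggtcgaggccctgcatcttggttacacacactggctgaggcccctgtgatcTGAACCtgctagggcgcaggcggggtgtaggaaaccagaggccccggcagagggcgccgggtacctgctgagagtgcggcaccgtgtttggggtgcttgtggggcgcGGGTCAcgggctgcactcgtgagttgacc

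The Drd2 window, searched over 300 bases including the first 50 after the start site, held 1 such core, GGGTCA on the opposite strand, with its first base at position -61 from the start site. Drd1 held 2 (GGGTCA and, on the opposite strand, GGTTCA) in this window and 0 in that of a further start site, Drd4 held 2, and the windows of Drd3 and Drd5 held 0. Of 32817 promoter windows of the same length, 43.7% held at least 1 core, so a match is common. No member had a direct repeat of these cores spaced by 1, 2 or 5 bases, the arrangements known for retinoid receptor pairs, which occurred in 0.222%, 0.268% and 0.0975% of windows. The letters were searched as exact matches and in these windows only, so an element that departs from these cores by a base would be missed. The Drd3 window was the poorest in G and C among the members: it had 42% G and C with 2 CG dinucleotides, against 70.3% with 23 for Drd2, 65.7% with 23 for Drd1, 58% with 15 for Drd4, 70.3% with 38 for Drd5 and a median of 52.7% over all windows. The start site that RefSeq gives for Drd3 is a single one of possibly several, and no source used here names the build of the array's own annotation.

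Drd3 had the largest change of the family. In WT arrays it ranged from 10.28 to 10.55 (median 10.38), and the Rarb-null arrays read 9.77, 9.89, 9.85, 9.72 and 9.89. All 5 Rarb-null arrays thus lay below the lowest WT array. The mean went from 10.40 ± 0.10 (n = 6) to 9.82 ± 0.08 (n = 5). This was a difference of -0.57 (SE 0.051, 95% interval -0.68 to -0.46), or 1.49-fold (adjusted p = 5.72e-06, limma with Benjamini-Hochberg adjustment). The two-sided exact permutation p was 0.00216, the smallest that the 462 splits of the arrays can give. The fall of Drd3 was past the threshold in every alternative run, with values from -0.61 to -0.51.

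Drd2, the brightest probe set of the family relative to other genes (98.2nd percentile of mean level), ranged from 11.88 to 12.02 in WT (median 11.97). The Rarb-null arrays read 11.67, 11.56, 11.78, 11.73 and 11.54, again all below the lowest WT array, with a wider spread (SD 0.105 against 0.050). Its mean went from 11.97 to 11.66, a difference of -0.31 (SE 0.046, 95% interval -0.41 to -0.21), or 1.24-fold (limma Benjamini-Hochberg adjusted p = 0.00048; exact permutation p = 0.00216). Drd2 also passed the threshold in every alternative run, with values from -0.39 to -0.24. The probe set does not separate the long and short forms of the receptor as used here.

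Drd4, the remaining member of the D2 class, was dim: its mean level stood at the 40.3rd percentile of genes. Its WT mean (6.96) was under the filter level of 6.99 and its Rarb-null mean (7.07) above it, so it was tested only through the group where it is brighter, and its test supports nothing by itself. WT arrays ranged from 6.89 to 7.06 (median 6.96), and Rarb-null arrays read 6.85, 7.16, 7.08, 7.09 and 7.16. The first of these was the lowest of all 11 arrays, while the other 4 lay above every WT array. The difference of 0.11 (SE 0.054, 95% interval -0.01 to 0.22) did not pass (limma Benjamini-Hochberg adjusted p = 0.181; exact permutation p = 0.11). Without Rarb-null replicate 1 it was 0.16 (adjusted p = 0.0166), and in every other alternative run the adjusted p was 0.102 to 0.576. With quantile normalisation repeated it was 0.06, so this value moved with the scaling.

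In the D1 class, Drd1 is the main stimulatory dopamine receptor gene of striatal projection neurons. Its level ranged from 10.90 to 11.02 in WT (median 10.96), and the Rarb-null arrays read 10.85, 10.91, 10.93, 10.85 and 10.80. The genotypes overlapped, although 3 of the 5 Rarb-null arrays lay below every WT array. The difference was -0.09 (SE 0.034, 95% interval -0.16 to -0.02; unadjusted p = 0.0183) and did not pass (limma Benjamini-Hochberg adjusted p = 0.0744), with an exact permutation p of 0.0152. That interval bounds a fall of Drd1 well short of the difference of Drd3. Centring of the arrays moved it to -0.05 (adjusted p = 0.384), and no alternative brought it past the threshold (adjusted p 0.0501 to 0.84).

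Drd5, the high-affinity receptor of the D1 class, stood at the 49.8th percentile of mean level. WT arrays ranged from 7.56 to 8.10 (median 7.74), and Rarb-null arrays read 7.48, 7.49, 7.54, 7.51 and 7.66. WT was the more variable genotype (SD 0.190 against 0.071), with replicate 1 at 8.10 and the others at no more than 7.84. The last Rarb-null array, at 7.66, overlapped the WT range, and the other 4 lay below it. The difference of -0.23 (SE 0.078, 95% interval -0.40 to -0.06) just missed the threshold (limma Benjamini-Hochberg adjusted p = 0.0537; exact permutation p = 0.0216). Its call depended on the setting. It passed with quantile normalisation repeated (-0.25, adjusted p = 0.0378), with a trended and robust variance (-0.23, adjusted p = 0.0468) and with array weights (-0.22, adjusted p = 0.0353). Among fits with 1 array left out it passed without WT replicate 3 (-0.27, adjusted p = 0.0251), without WT replicate 6 (-0.26, adjusted p = 0.0451) or without Rarb-null replicate 5 (-0.26, adjusted p = 0.049), and without WT replicate 1 it was -0.17 (adjusted p = 0.0579).

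**Figure D2:**
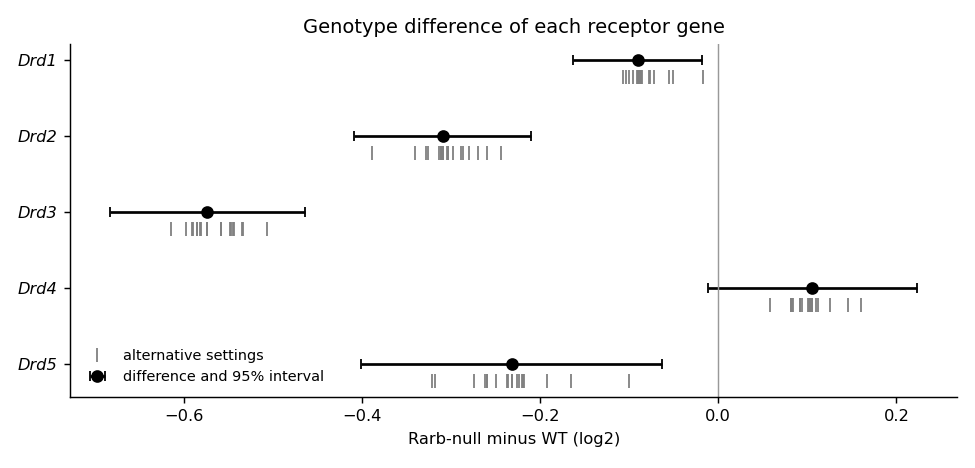
Genotype difference (Rarb-null minus WT, log2, horizontal axis) of each dopamine receptor gene, as a point with its 95% interval from limma; grey ticks give the value under each alternative setting, left-out arrays included. Drd3 (-0.57) and Drd2 (-0.31) lie apart from 0 in all of them, Drd1 (-0.09) and Drd5 (-0.23) stay negative, and Drd4 (0.11) stays positive.

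Whether the signals of the receptor genes changed unequally was tested within each array, as the difference between the log2 values of 2 members. The size of such a value depends on the probe sets, so only its change between genotypes was used. That change can also depend on how steeply each probe set responds to its transcript, which was not measured. Drd2 minus Drd1 was 0.91 to 1.06 in WT and 0.66 to 0.88 in Rarb-null arrays, with no overlap. The Drd2 signal thus lost 0.22 relative to that of Drd1 (exact permutation p = 0.00433). Drd3 minus Drd1 was -0.62 to -0.47 in WT and -1.13 to -0.90 in Rarb-null arrays, also without overlap. This was a loss of 0.48 for the Drd3 signal (change of -0.48, exact permutation p = 0.00216). Drd3 minus Drd2 was -1.67 to -1.44 in WT and -2.01 to -1.64 in Rarb-null arrays, where 1 of the 5 arrays (replicate 5) reached the WT range. The change was -0.26 (exact permutation p = 0.00866). After Benjamini-Hochberg adjustment over these 3 pairs the permutation p values were 0.00649, 0.00649 and 0.00866, two-sided. The last of these changes did not pass with a cortical (-0.26, permutation adjusted p = 0.0568) or oligodendrocyte marker level (-0.16, permutation adjusted p = 0.155) in the model.

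**Figure D3:**
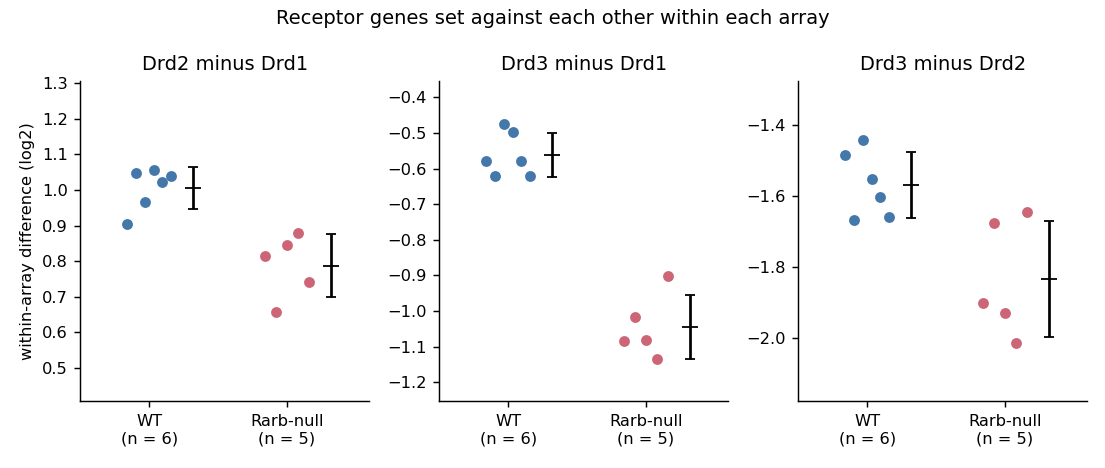
Within-array difference between 2 receptor genes (log2, vertical axis) in the 6 WT (blue) and 5 Rarb-null (red) arrays, with mean ± SD beside the points. The genotypes are separate for Drd2 minus Drd1 and for Drd3 minus Drd1, and 1 Rarb-null array of Drd3 minus Drd2 lies within the WT range.

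Markers of other cells differed between the same arrays. Of 9 tested cortical neuron markers 4 were higher and 0 lower, where 7.56% of all tested genes were called higher, and Neurod6 was under the filter. Lamp5 rose by 0.66 (SE 0.061, SD 0.10 in WT) and kept its call in every alternative run. Slc17a7 (0.90, SD 0.78 in WT) and Tbr1 (0.95, SD 0.81 in WT) did not pass (limma adjusted p = 0.0639 and 0.0698). The mean level of these 9 markers, Lamp5 among them, was 8.49 ± 0.25 for WT and 8.94 ± 0.22 for Rarb-null. Over the 6 arrays of WT alone, Drd1 was lower where this level was higher (Pearson's r = -0.907, exact permutation p = 0.00972; Spearman's rho = -0.943, p = 0.0167; r = -0.615 without the 2 arrays farthest from the median), and so was Drd3 (r = -0.875, exact permutation p = 0.0278; rho = -0.943, p = 0.0167; r = -0.944 without those arrays). For Drd2, Drd4 and Drd5 r was -0.355, 0.046 and 0.161 (exact permutation p = 0.501, 0.919 and 0.772; rho = -0.429, -0.086 and 0.486, p = 0.419, 0.919 and 0.356; without those arrays r = -0.381, -0.761 and 0.280). These 5 relations were computed after the data were seen, on 6 arrays, and their p values are not adjusted.

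With this cortical level added to the model, the limma difference of Drd1 shrank to -0.02 (adjusted p = 0.84). That of Drd2 was -0.24 (adjusted p = 0.0321), that of Drd3 -0.51 (adjusted p = 0.000698) and that of Drd5 -0.32 (adjusted p = 0.0984). Leaving out the 3 arrays at the ends of the cortical scale (WT replicate 3, WT replicate 4 and Rarb-null replicate 5), Drd1 gave -0.05, Drd2 -0.26 (adjusted p = 0.011) and Drd3 -0.53 (adjusted p = 8.76e-05), and Drd5 passed (-0.32, adjusted p = 0.0361). Oligodendrocyte markers went the other way, with 4 of 9 tested genes lower, where 12% of all tested genes were called lower. Their level was 9.41 ± 0.09 in WT (9.31 to 9.54) and 9.25 ± 0.09 in Rarb-null arrays (9.12 to 9.36). With their level as a covariate Drd5 was -0.10 (adjusted p = 0.578), Drd2 -0.39 (adjusted p = 0.00147) and Drd3 -0.54 (adjusted p = 0.000728). Cholinergic interneurons make Drd2 and Drd5. The mean level of their markers was at most 8.16 in Rarb-null arrays and 8.17 to 8.37 in WT arrays, a narrow gap. Of 6 tested genes 4 fell, where 12% of all tested genes were called lower. Among them were the choline transporter gene Slc5a7 (-0.42, SE 0.055) and Chat, the gene of the acetylcholine-synthesising enzyme (-0.18, SE 0.048). The other 2, Lhx8 (-0.03) and Gbx2 (0.005), did not pass (limma adjusted p = 0.684 and 0.967). Chat lost its call in 4 alternative runs (limma adjusted p 0.0511 to 0.229), the fit without Rarb-null replicate 3 among them (-0.14). The part of cholinergic interneurons in the differences of Drd2 and Drd5 was not tested. Of the indicators of position within the accumbens, Calb1, taken as higher in the core, rose by 0.93 (SE 0.067) and Calb2, taken as higher in the shell, by 0.54 (SE 0.174). The rise of Calb2 was not past the threshold without any array except WT replicates 2 and 5 and Rarb-null replicate 4, and with the cortical covariate it was -0.06. The part of position in the fall of Drd3 was not tested.

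**Figure D4:**
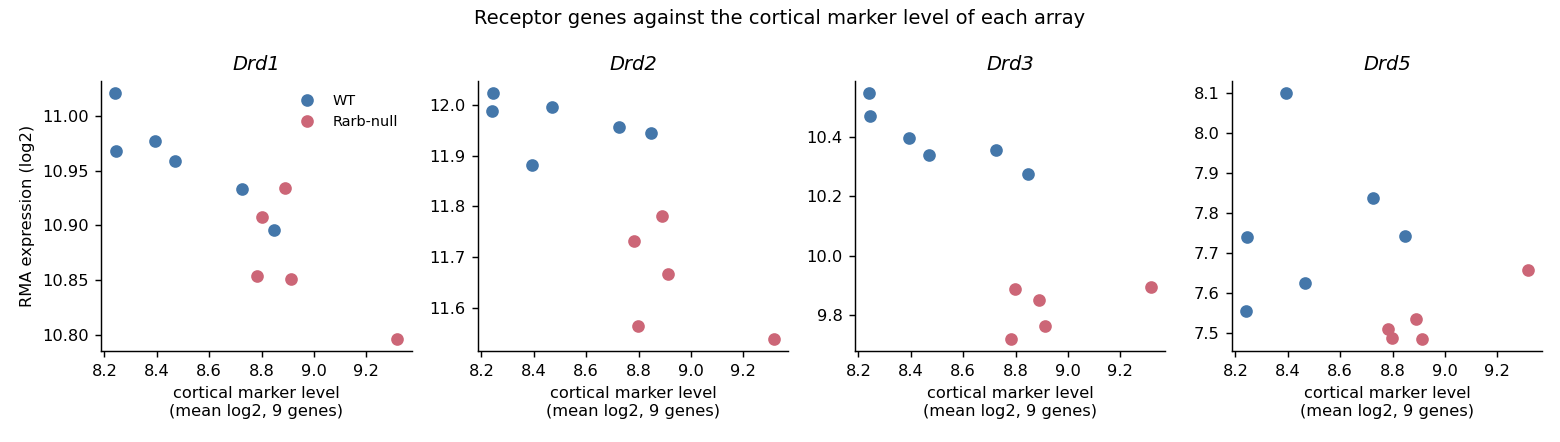
RMA expression (log2, vertical axes, each with its own range) of Drd1, Drd2, Drd3 and Drd5 against the mean log2 level of 9 cortical neuron markers (horizontal axes) in each WT (blue) and Rarb-null (red) array. The cortical level spans 8.24 to 8.85 in WT and 8.78 to 9.32 in Rarb-null arrays, so the genotypes share only a narrow stretch of it, and Drd1 is lower where this level is higher among WT arrays.

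Most of the listed markers of neurons with the Drd2 receptor fell, as Drd2 did. Of 7 tested markers 5 fell and 2 did not pass, where 12% of all tested genes were called lower. Their median was -0.44 against -0.02 over all tested genes. Upb1, a gene of pyrimidine breakdown, fell by 1.24 (SE 0.060), the receptor phosphatase gene Ptprm by 0.62 (SE 0.035) and Gucy1a1, a subunit of the nitric oxide receptor guanylyl cyclase, by 0.51 (SE 0.033), each with an adjusted p of at most 2.31e-07. The enkephalin precursor gene Penk, the most abundant marker of these neurons, did not pass (-0.07, adjusted p = 0.103). Adora2a had no usable probe set. Of 9 tested markers of neurons with the Drd1 receptor 4 fell, 2 rose and 3 did not pass (median -0.17). For all tested genes the shares called were 12% lower and 7.56% higher. Slc35d3, which helps the D1 receptor reach the cell surface, fell by 0.60 (SE 0.052), and Tac1, the substance P precursor gene, by 0.39 (SE 0.037). Ebf1, a transcription factor gene of this lineage, rose from 8.03 ± 0.23 to 9.19 ± 0.27 (1.16, SE 0.126). Both lists were chosen with earlier results of these data known, and their counts are descriptions.

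Some of the genes listed as effectors of D1-class receptors fell. Of 17 tested effector genes 7 fell and 0 rose (limma; 9 had an unadjusted p under 0.05), and the median was -0.07, where 12% of all tested genes were called lower. The phosphodiesterase genes Pde10a (-0.42, SE 0.043) and Pde4b (-0.33, SE 0.034), whose products break down cyclic nucleotides, led the falls, followed by Ppp1cc (-0.28, SE 0.034), a catalytic subunit of the phosphatase that DARPP-32 inhibits. Ppp1r1b, which encodes DARPP-32, gave -0.10 (SE 0.033, adjusted p = 0.0499), a call kept when WT replicate 1 or Rarb-null replicate 3 was left out and lost without any other array (adjusted p 0.0574 to 0.105). With the cortical covariate 3 of the 17 fell, and with arrays centred 4 fell and 1 rose. Gnal, the olfactory-type stimulatory G protein gene through which Drd1 signals, gave -0.07 (SE 0.035, adjusted p = 0.152), and adenylyl cyclase Adcy5 gave -0.11 (SE 0.037, adjusted p = 0.045). Pde10a, Ppp1r1b and Adcy5 were also listed as striatal projection neuron markers, so their falls are counted under both lists.

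Among 16 tested effector genes of D2-class receptors 3 fell and 2 rose, with a median of -0.003, where 12% of all tested genes were called lower and 7.56% higher. Rgs9, which speeds the shut-off of inhibitory G proteins after D2 receptor activation, fell by 0.42 (SE 0.039). It was also listed among the markers of striatal projection neurons. Ppp2r2a, a regulatory subunit of protein phosphatase 2A, fell by 0.18 (SE 0.035), a call lost with the cortical (-0.14, adjusted p = 0.101) and the oligodendrocyte covariate (-0.16, adjusted p = 0.0737). Gnai1, one of the inhibitory G protein genes that these receptors use, rose by 0.20 (SE 0.034). With the cortical covariate 1 fell and 1 rose.

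The list of proteins that regulate or bind the receptors held 16 tested genes. Of these 2 fell, Cav1 (-0.14, SE 0.043), which encodes the scaffold of caveolae, and Rgs7bp (-0.09, SE 0.030), which anchors RGS proteins at the membrane, and 0 rose (limma; 6 genes had an unadjusted p under 0.05), a share close to the 12% of all tested genes called lower. The median was 0.015. Neither call was firm: over the 11 fits with 1 array left out, Cav1 passed in 4 and Rgs7bp in 1. Limma called 0 of the 16 when 1 of WT replicates 2, 3, 5 and 6 was left out, or replicate 3 of Rarb-null. It called 1 when WT replicate 4 was left out, or any other Rarb-null array. That call was a rise without Rarb-null replicate 2. Without WT replicate 1 the calls were 1 rise and 1 fall. With arrays centred 4 rose and 0 fell, so the direction of this list depended on the scaling. Grk5, a kinase that desensitises G protein-coupled receptors, gave 0.18 (SE 0.060, adjusted p = 0.0531) and passed, among other settings, with centred arrays (0.22, adjusted p = 0.0104) and with WT replicate 1 (0.20, adjusted p = 0.0479) or Rarb-null replicate 2 left out (0.22, adjusted p = 0.0203).

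Genes of dopamine synthesis, storage, uptake and breakdown were represented by 10 tested genes, of which 2 fell and 1 rose (median -0.07). Among all tested genes 12% were called lower and 7.56% higher. Maob, which encodes monoamine oxidase B, fell by 0.28 (SE 0.038), and the aldehyde dehydrogenase gene Aldh2 by 0.17 (SE 0.050). Th, the gene of the rate-limiting enzyme of dopamine synthesis, rose by 0.18 (SE 0.056, adjusted p = 0.037). Only the fall of Maob was left when WT replicate 2, Rarb-null replicate 1 or Rarb-null replicate 2 was omitted. The call of Aldh2 was also lost without WT replicate 3, 4 or 6, and that of Th without Rarb-null replicate 3, 4 or 5. Dopamine neurons have their cell bodies in the midbrain. Of their 4 defining markers Slc18a2, the vesicular transporter gene, was under the filter, and Th and Ddc (8.63 and 8.74 in WT) lay above it. The dopamine transporter gene Slc6a3 lay under the filter level in WT (6.93 ± 0.12) and above it in Rarb-null arrays (7.10 ± 0.13). It was thus tested only through the group where it is brighter, and its test supports nothing by itself.

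**Figure D5:**
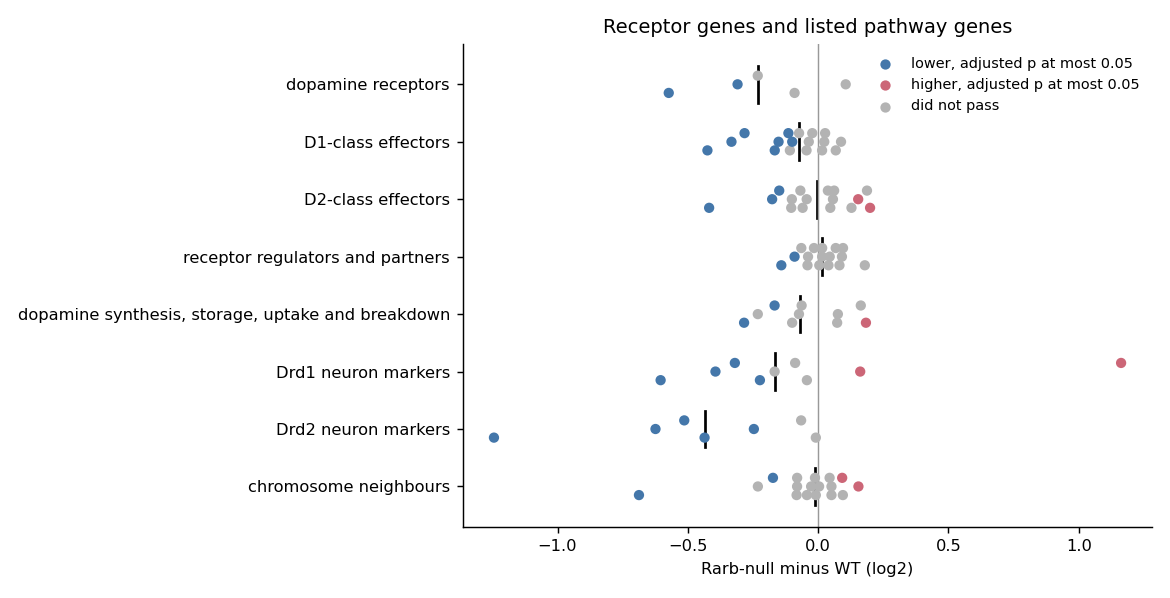
Genotype difference (Rarb-null minus WT, log2, horizontal axis) of the dopamine receptor genes and of the tested genes of each list; every point is 1 gene, coloured where its limma Benjamini-Hochberg adjusted p is at most 0.05, and black bars mark list medians. The Drd2 neuron markers have the lowest median (-0.44), and Ebf1 (1.16) is the point farthest to the right.

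The members lie on chromosomes 13 (Drd1), 9 (Drd2), 16 (Drd3), 7 (Drd4) and 5 (Drd5), none of them on chromosome 14 with Rarb. Of the 3 nearest protein-coding genes on each side of every member, 17 of 30 passed the filter, and 2 fell and 2 rose among them (median -0.012), a share close to the 19.6% of all tested genes called in either direction. Zdhhc23, a palmitoyltransferase gene and the third after Drd3 in the order of the chromosome, spanned 10.70 to 10.91 in WT against 10.04 to 10.22 in Rarb-null arrays, without overlap. It fell by 0.69 (SE 0.041, adjusted p = 1.25e-07), while Qtrt2, next to Drd3, fell by 0.17 (SE 0.056, adjusted p = 0.0445). The call of Qtrt2 held in 4 of the 11 fits with 1 array left out, and was lost with arrays centred (-0.13, adjusted p = 0.0771) and with the cortical covariate (-0.12, adjusted p = 0.399). The other tested neighbours of Drd3, Gap43 and Zbtb20, gave 0.05 and -0.23 (adjusted p = 0.245 and 0.127). Beside Drd2, the adhesion molecule gene Ncam1 (0.05) and Zw10 (-0.08) were the only neighbours past the filter, and neither passed the test. The rises were Wdr1 (0.15, SE 0.040) and Zfp518b (0.09, SE 0.029), both after Drd5. The call of Zfp518b held in 2 of the 11 fits with 1 array left out and was lost with quantile normalisation repeated (0.05, adjusted p = 0.256), and that of Wdr1 was lost with the cortical (0.13, adjusted p = 0.188) and the oligodendrocyte covariate (0.12, adjusted p = 0.216). The 4 calls became 2 on omitting any of 4 arrays (WT replicates 3 and 4, Rarb-null replicates 3 and 5), 1 with the cortical covariate and 2 with the oligodendrocyte covariate; Zdhhc23 kept its call in every alternative run.

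To describe how the members varied from mouse to mouse, deviations from the genotype means were correlated over the 11 arrays. Drd1 and Drd3 varied together most among the members (Pearson's r = 0.535, Spearman's rho = 0.464), then Drd3 and Drd4 (r = 0.462, rho = 0.373) and Drd1 and Drd2 (r = 0.407, rho = 0.418), whereas for Drd2 and Drd3, the pair that fell, r was -0.168 and rho -0.109. Among the 11963 tested genes the deviations most like those of Drd1 were of Bach2 (r = 0.930, rho = 0.882), Igsf9b (r = 0.892, rho = 0.900) and 1700030K09Rik (r = 0.873, rho = 0.907). For Drd2 they were of Slc35b4 (r = 0.949, rho = 0.927), Agfg2 (r = 0.947, rho = 0.882) and Prkch (r = 0.938, rho = 0.955), and for Drd3 of Trib2 (r = 0.896, rho = 0.882), Arhgef10l (r = 0.878, rho = 0.836) and Rnf169 (r = 0.867, rho = 0.818). These are the highest of many correlations over few arrays that share tissue composition and scaling, so they are descriptions and carry no p value.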

How the data were processed

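Nucleus accumbens RNA (100 ng) of 6 WT and 5 Rarb-null mice was hybridised to 1 array per mouse. The values the authors deposited are log2 expression after robust multi-array analysis (RMA), as the labels and processing notes of the submitters say; the log base was taken from the range. RMA subtracts background, equalises array distributions and summarises probes, which compresses differences of dim probe sets. Software version and annotation are not given in the sources used here, detection calls, scan dates and batches were not used, and the number of arrays limits the precision.

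Symbols came from the platform's annotation table (21789 probe sets with 1 symbol, 1621 with several and 12146 not listed), 21698 of them matched by Entrez identifier to a RefSeq table of GRCm38.p6. Where several probe sets named a gene, the brightest stood for it. Genotypes were compared with limma 3.58.1 in R 4.3.3 (functions lmFit and eBayes without covariate, Benjamini-Hochberg adjustment over 11963 genes, threshold 0.05) and, for single genes and pairs, two-sided exact permutation tests over 462 splits (9999 Freedman-Lane permutations with a covariate). Differences are Rarb-null minus WT with the limma standard error (SE), and levels are mean ± SD. On simulated data for this comparison over 11963 genes, limma recovered 12% of genes changed by log2 0.1, 84% at 0.25, 98% at 0.5 and 98% at 1, with 6 false calls. The simulated noise was normal and independent between genes, with few genes changed and no shift shared by genes. Many more genes were called in the deposited arrays, so these rates need not hold for them.

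The members and lists were chosen with earlier results of these data known. Named genes were the members, Rarb, the 3 smallest p values of each list and of the chromosome neighbours, and the 3 genes most like Drd1, Drd2 and Drd3; Qtrt2, Gap43, Zbtb20, Ncam1, Zw10, Ppp1r1b, Gnal, Adcy5, Penk, Slc6a3 and the marker genes were named after their values were seen. Alternatives changed the filter, scaling, variance model, array weights, probe sets, replicate block and covariates, or left out arrays. The set without 3 arrays and the correlations within WT were added after seeing the data. Figures were drawn with matplotlib 3.10.9.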

Additional observations from a re-analysis of the deposited data

Results flagged for a closer look

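Among the 10 groups of member values checked for an array far from the others, 1 had such an array. Drd4 read 6.85 in Rarb-null replicate 1 and 7.08 to 7.16 in the other 4 Rarb-null arrays; the gap was 0.736 of the group's range. Chance gives such an array in about 1 in 20 groups. The cause was not tested.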

How the results depend on the processing

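Drd2 and Drd3 kept their direction and their call, and Drd1 its direction and lack of a call, under all 22 alternatives run. Drd5 passed with quantile normalisation repeated (-0.25), a trended and robust variance (-0.23), array weights (-0.22) and with the 3 arrays at the ends of the cortical scale left out (-0.32), and ranged from -0.27 to -0.17 over single arrays left out. Drd4 ranged from 0.082 to 0.16 over left-out arrays. Drd2 minus Drd1 and Drd3 minus Drd1 passed in all 15 alternatives run for them; Drd3 minus Drd2 was -0.26 with the cortical and -0.16 with the oligodendrocyte covariate, neither past the threshold. The count of called genes was 1050 and 847 with these covariates, 1347 without those arrays and 1547 to 2576 over left-out arrays. With the cortical covariate limma called 3 D1-class effectors, 2 D2-class effectors, 0 regulators and partners (3 with an unadjusted p under 0.05), 1 gene of synthesis and breakdown and 1 neighbour. With the oligodendrocyte covariate it called 0 regulators and partners (3 with an unadjusted p under 0.05) and 2 neighbours. Regulators and partners also gave 0 calls without a filter (4 with an unadjusted p under 0.05), 4 with arrays centred and 0 to 2 over left-out arrays, synthesis and breakdown 1 to 3, and neighbours 2 to 3. Calb2 turned to -0.060 with the cortical covariate. The causes were not tested. Deviations of same-numbered arrays of the 2 genotypes were positively correlated for every number, though unevenly (0.056 to 0.425). Of the 10 arrays with a same-numbered partner 5 matched it best. The labels name no pairing, so the numbers were not taken as pairs in the main fit, and shared handling of same-numbered arrays was not tested. With the replicate number as a block, Drd5 was -0.26 (limma adjusted p = 0.0303). In that fit 2872 genes were called, and regulators and partners gave 1 call.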
